A study of Mus musculus with 8 samples.

Results

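The nuclear genes for the subunits of respiratory chain complexes I to V, with cytochrome c, were examined in fasted mouse liver. Members were chosen by gene symbol among 19938 genes measured by a probe set that names 1 gene only. The symbol patterns, for the Nduf, Sdh, Uqcr, Cox4 to Cox8 and Atp5 genes together with Cyc1 and Cycs, found 83 genes: 33 of complex I, 4 of complex II, 9 of complex III, 19 of complex IV and 17 of complex V, and cytochrome c as 1 gene. Ndufa4 and its paralog Ndufa4l2 carry complex I names but were placed with complex IV, where the Ndufa4 protein is found. Where a gene had several probe sets, the one with the highest average over the arrays stood for it. Of the known subunits, Ndufb4 and Cox7c were read only by probe sets shared with other genes, Ndufab1 and Atpif1 were outside the patterns, and Ndufb1 is not analysed here.

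The respiratory chain sits in the inner mitochondrial membrane. Complex I takes electrons from NADH and complex II takes them from succinate. Both pass them to coenzyme Q, complex III moves them on to cytochrome c, and complex IV hands them to oxygen. Complexes I, III and IV pump protons as they do so, and complex V, the ATP synthase, makes ATP from the returning protons. Complexes I, III, IV and V each combine subunits encoded by mitochondrial DNA with nuclear subunits, whereas complex II and cytochrome c are wholly nuclear. In fasted liver this chain reoxidises the NADH and reduced flavins that fatty acid oxidation produces and supplies ATP for glucose synthesis.

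The 8 liver samples came from C57BL6 mice and were each read on a 1-colour Affymetrix Mouse Gene 1.0 ST array. All mice were fasted for 17 h before sacrifice. In the hydrogen water group (4 arrays), mice drank water carrying molecular hydrogen for 4 weeks from the age of 7 weeks, and the other 4 arrays are the controls. The age at the start is given as 7 weeks for all 8 samples, controls included. What the controls drank and the sex of the animals are not given in the labels, and the labels' treatment text, the same for all 8 samples, was not used for grouping. Whether every array is from its own animal is not stated, so the p-values speak only to the scatter among these samples, which may be technical, and the small number of arrays limits the precision. Values are log2 signals, on which a difference of 1 is a doubling. Of 10 hepatocyte markers, 9 were measured and 9 of these lay above the median signal of all genes, with per-array means of 13.87 to 13.90 in controls and 13.88 to 13.93 with hydrogen water. Array medians lay between 5.27 and 5.37, and correlations between arrays between 0.988 and 0.995. Hydrogen water 4 stood apart for the respiratory chain genes. On control 3 single members lay far from the other controls, although their share of low values was near that of bright genes in general. Values without 1 or both of these arrays are given beside the main results.

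The comparison asked whether transcripts of the chain differed between livers of mice given hydrogen water and of controls. None of the 83 genes passed the test over all genes. With limma and Benjamini-Hochberg adjustment, 0 of 83 members and 0 of 19938 genes (0%) passed at 0.05, the smallest adjusted p among members being 0.655. Before adjustment, 6 members (7.23%) had p under 0.05, where all genes gave 7.17% and genes above the median signal 9.5%. The members' share was thus near that of all genes. It was below that of genes above the median signal, where 77 of the 83 members lay. All 6 were lower with hydrogen water, and 0 members were higher, beside 3.57% of all genes lower and 3.6% higher. The groups did not overlap in 3 members (3.61%), beside 3.76% of all genes. All 3 were lower (2.01% of all genes) and 0 were higher (1.76% of all genes). By an exact permutation test over the 70 assignments of the arrays, whose smallest two-sided p is 0.0286, 0 members passed after adjustment and 3 (Atp5md, Cyc1 and Ndufs4) had p under 0.05 before it.

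Small differences leaned to the lower side. With hydrogen water, 56 of 83 members were lower (67.5%) and 27 higher, against 51.3% lower of all genes and 48.5% lower of the 9969 genes above the median signal. The median difference of the members was −0.049, against −0.0047 for all genes and 0.0058 for genes above the median signal. The differences ran from −0.53 to 0.27. The 95% interval lay within −0.5 to 0.5 for 57 of the 83 members (68.7%). It did so for 78.7% of all genes and 70.7% of genes above the median signal. This lean varied with the arrays kept. Without hydrogen water 4, 42 of 83 members were lower and the median difference was −0.0001. Without control 3 it was 64 of 83 and −0.10, and without hydrogen water 1 it was 66 of 83 and −0.09. Leaving out control 3 and hydrogen water 4 together gave 52 of 83 lower, with a median of −0.06.

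**Figure D1:**
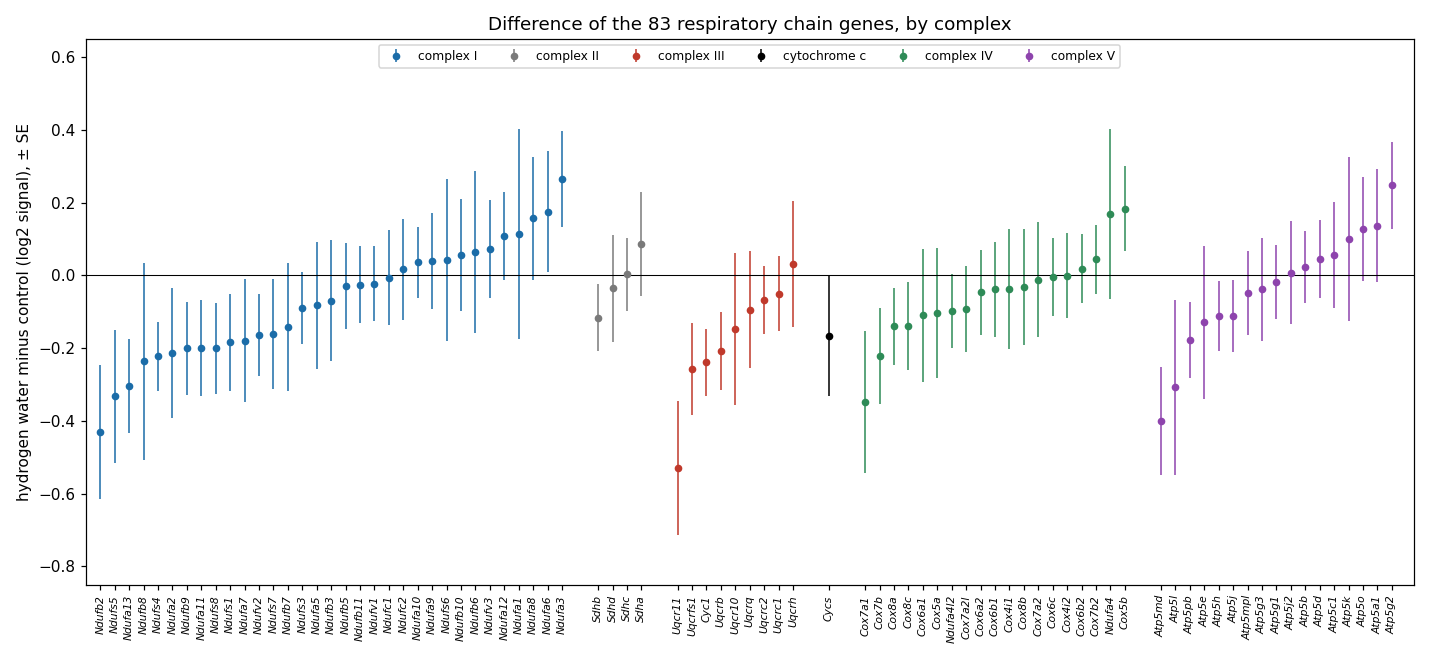
Difference of each of the 83 genes between hydrogen water and control on the log2 scale (points, with bars of 1 SE from the limma fit), grouped by complex and sorted within it. In complex III 8 of 9 genes lie below 0, while complex V is split between 8 genes above and 9 below.

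Complex I, which oxidises NADH, leaned lower: 21 of 33 members were lower and 12 higher, with a median of −0.07. Without hydrogen water 4 the median turned to 0.01, and without control 3 it was −0.13. Unadjusted p was under 0.05 in 3 members, all lower (Ndufs4, Ndufa13 and Ndufb2), and in 0 higher. Ndufs4, an accessory subunit whose loss in mice causes a Leigh-like brain disease, had log2 signals of 12.11, 12.06, 12.04 and 11.90 on controls 1 to 4 and 11.74, 11.89, 11.80 and 11.79 on hydrogen water 1 to 4. Every control value lay above every hydrogen water value, the closest being 11.90 and 11.89. Controls averaged 12.03 ± 0.09 (SD, n = 4) and the hydrogen water arrays 11.80 ± 0.06 (SD, n = 4). Their difference, −0.22 (SE 0.09), did not pass over all genes (limma adjusted p = 0.687). It was −0.21 without control 3 and hydrogen water 4.

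Ndufa13, also known as GRIM-19, is another accessory subunit. Its signals were 10.92, 10.95, 10.89 and 10.79 on controls 1 to 4 and 10.79, 10.80, 10.48 and 10.26 on hydrogen water 1 to 4. The groups met, since control 4, the lowest control, lay level with hydrogen water 1 and 2, and the difference of −0.30 (SE 0.13, limma adjusted p = 0.687) had hydrogen water 3 and 4 as its lowest arrays. Without hydrogen water 4 it was −0.20. Ndufb2, a membrane-arm subunit named here after its values were seen, stood at 9.27, 9.24, 9.24 and 9.13 on controls 1 to 4 and 9.17, 9.03, 8.80 and 8.15 on hydrogen water 1 to 4. The 4 controls were close together, while hydrogen water 4 lay far below the other 3 arrays of its group, and the difference was −0.43 (SE 0.18, limma adjusted p = 0.687).

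On the higher side of complex I, the smallest unadjusted p belonged to Ndufa3, a small accessory subunit of the membrane arm. Its signals were 10.54, 10.63, 10.21 and 10.83 on controls 1 to 4 and 10.92, 10.85, 10.81 and 10.67 on hydrogen water 1 to 4. The difference was 0.27 (SE 0.13, limma adjusted p = 0.716), and 0.15 without control 3, the lowest array. The catalytic subunits showed small differences. Ndufv1, which binds NADH and the flavin, had 11.59, 11.63, 11.32 and 11.62 on controls 1 to 4 and 11.56, 11.50, 11.54 and 11.47 on hydrogen water 1 to 4, and 7 arrays other than control 3 lay between 11.47 and 11.63. Its difference was −0.02 (95% interval −0.25 to 0.20). Ndufs1, the large iron-sulphur subunit, had 10.42, 10.24, 10.05 and 9.94 on controls 1 to 4 and 10.02, 9.69, 10.13 and 10.07 on hydrogen water 1 to 4, with overlapping groups and a difference of −0.18 (95% interval −0.48 to 0.11). It was −0.10 without control 1 and −0.089 without hydrogen water 2.

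By module, the NADH-oxidising arm had 6 of 10 members lower (median −0.09). The quinone-reducing module had 4 of 4 measured members lower (median −0.13), and the other accessory subunits 11 of 19 (median −0.03). In the quinone module, Ndufs7 and Ndufs8, which carry iron-sulphur clusters that lead to the quinone site, differed by −0.16 (SE 0.15) and −0.20 (SE 0.12), and Ndufs3 and Ndufa5 by −0.09 (SE 0.10) and −0.08 (SE 0.18). Each of those differences was under 2 SE. The largest SE in the complex was that of Ndufa1, a small membrane subunit, which stood at 7.73 on control 3 and 8.17 on hydrogen water 4 against 8.78 to 9.23 on the other arrays. Its difference was accordingly uncertain, at 0.11 (95% interval −0.52 to 0.74). Ndufb8, a membrane-arm subunit, had the same shape, at 10.07 on control 3 and 9.49 on hydrogen water 4 against 10.50 to 10.87 on the others.

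Complex II, succinate dehydrogenase, was even between the groups, with 2 members higher, 2 lower and a median of −0.02. The median was −0.10 without control 3 and hydrogen water 4, −0.06 without control 3 alone and 0.04 without control 1. Sdha, the flavoprotein that oxidises succinate, had 12.33, 12.20, 11.81 and 12.13 on controls 1 to 4 and 12.13, 11.91, 12.33 and 12.45 on hydrogen water 1 to 4. Its difference was 0.09 (95% interval −0.23 to 0.40), and it was −0.01 without control 3. Sdhb, the iron-sulphur subunit, had 11.37, 11.28, 11.36 and 11.31 on controls 1 to 4 and 11.25, 11.11, 11.29 and 11.21 on hydrogen water 1 to 4. Hydrogen water 2 was the lowest of the 8 and the groups met at control 2 and hydrogen water 3, with a difference of −0.12 (95% interval −0.32 to 0.09). The membrane anchors Sdhc and Sdhd differed by 0.0026 (SE 0.10) and −0.04 (SE 0.15). All 4 intervals lay within −0.5 to 0.5.

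Complex III, the cytochrome bc1 complex, leaned lower in 8 of 9 members, with a median of −0.15. The median was −0.08 without control 2, −0.10 without hydrogen water 4 and −0.09 without that array and control 3. Unadjusted p was under 0.05 in 2 members, both lower (Uqcr11 and Cyc1). Cyc1, the haem-bearing cytochrome c1 that passes electrons to cytochrome c, had log2 signals of 11.75, 11.73, 11.64 and 11.57 on controls 1 to 4 and 11.46, 11.44, 11.43 and 11.40 on hydrogen water 1 to 4. The groups were apart, and the hydrogen water arrays lay closer together than the controls. Controls averaged 11.67 ± 0.08 (SD, n = 4) and the hydrogen water arrays 11.43 ± 0.03 (SD, n = 4). Their difference was −0.24 (SE 0.09), with a limma adjusted p of 0.680. The value stayed between −0.27 and −0.21 when each array was left out in turn, and was −0.24 without control 3 and hydrogen water 4.

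Uqcr11, a small membrane subunit, had 12.12, 12.17, 12.32 and 11.82 on controls 1 to 4 and 11.97, 11.71, 11.63 and 11.01 on hydrogen water 1 to 4. Hydrogen water 4 was the lowest and control 3 the highest, and the groups overlapped because control 4 lay below hydrogen water 1. The difference was −0.53 (SE 0.18), the most negative of the 83 (limma adjusted p = 0.655), and its second probe set gave −0.59. It was −0.34 without hydrogen water 4 and −0.27 without that array and control 3. Uqcrfs1, the Rieske iron-sulphur protein, had 10.62, 10.60, 10.28 and 10.17 on controls 1 to 4 and 10.30, 10.02, 10.20 and 10.12 on hydrogen water 1 to 4. Controls 1 and 2 were high, while controls 3 and 4 lay among the hydrogen water values, and the difference was −0.26 (SE 0.13, limma adjusted p = 0.716). The core protein gene Uqcrc1 differed by −0.05 (95% interval −0.28 to 0.17) and Uqcrc2 by −0.07 (95% interval −0.27 to 0.14). The quinone-binding protein gene Uqcrb differed by −0.21 (SE 0.11). Uqcrh, the hinge protein, was the member on the higher side, at 0.03 (95% interval −0.34 to 0.41), and it was lower (−0.13) without control 3.

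Cytochrome c, the soluble carrier between complexes III and IV, is encoded by Cycs. Its signals were 12.74, 12.95, 13.59 and 12.87 on controls 1 to 4 and 12.80, 13.05, 12.91 and 12.74 on hydrogen water 1 to 4. Control 3 was the highest of the 8 arrays, in contrast to most members, and the difference of −0.17 (95% interval −0.53 to 0.20) turned to 0.02 without it.

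Complex IV, cytochrome c oxidase, had 15 of 19 members lower and 4 higher, with a median of −0.04, and 0 members with an unadjusted p under 0.05. The median was −0.09 without control 3, −0.11 without hydrogen water 1 and −0.0030 without hydrogen water 4. Cox4i1, the common form of subunit 4, had 11.62, 11.63, 11.05 and 11.62 on controls 1 to 4 and 11.72, 11.59, 11.36 and 11.11 on hydrogen water 1 to 4. Control 3 and hydrogen water 4 were low and the other arrays lay between 11.36 and 11.72, so that the groups overlapped. The difference was −0.04 (95% interval −0.40 to 0.32), and it changed sign when control 1, 2 or 4 or hydrogen water 4 was left out. Cox5a, another nuclear subunit, had 11.04, 11.08, 10.35 and 10.86 on controls 1 to 4 and 11.02, 10.75, 10.81 and 10.35 on hydrogen water 1 to 4, low on the same 2 arrays, and differed by −0.10 (95% interval −0.49 to 0.28). Cox5b, a zinc-binding subunit, had the smallest unadjusted p on the higher side. Its signals were 11.69, 11.76, 11.35 and 11.73 on controls 1 to 4 and 11.95, 11.69, 11.82 and 11.81 on hydrogen water 1 to 4, and the difference was 0.18 (SE 0.12, limma adjusted p = 0.789). Control 3 was far below the other arrays, and without it the difference was 0.089. Ndufa4 differed by 0.17 (SE 0.23), with 11.03 on control 3 and 11.40 on hydrogen water 4 against 11.92 to 12.22 on the others. In the 11 members other than the isoforms of other tissues, the lowest of the 8 values was on control 3 or hydrogen water 4 in 11. The share was 34.2% of all genes and 38.8% of genes above the median signal. These 2 arrays were singled out after the values were seen.

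Several complex IV subunits have isoforms typical of other tissues, and 8 such genes were measured: Cox4i2 (lung), Cox6a2, Cox7a1 and Cox8b (heart and skeletal muscle), Cox6b2, Cox7b2 and Cox8c (testis) and Ndufa4l2, which hypoxia induces. Of these, 6 lay below the median signal of all genes (5.87) and Cox7a1 and Cox6b2 above it. Cox7a1 had 7.70, 7.47, 6.93 and 7.09 on controls 1 to 4 and 7.16, 7.25, 6.90 and 6.48 on hydrogen water 1 to 4. It was highest on controls 1 and 2 and lowest on hydrogen water 4, with overlapping groups, and differed by −0.35 (SE 0.20, limma adjusted p = 0.753). The difference was −0.19 without hydrogen water 4 and −0.21 without control 1. Of 10 muscle markers measured, 5 were higher and 5 lower, with per-array means of 4.996 to 5.22 in controls and 5.02 to 5.17 with hydrogen water, and 3 of 10 lay above the median signal. The part of muscle RNA in the Cox7a1 signal was not tested. Cox4i2, Cox6a2, Cox8b and Ndufa4l2 differed by −0.00086 (SE 0.12), −0.05 (SE 0.12), −0.03 (SE 0.16) and −0.10 (SE 0.10).

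Complex V, the ATP synthase, was split, with 8 members higher, 9 lower and a median of −0.02. The median was −0.09 without control 3 and 0.04 without hydrogen water 4. The catalytic head was close to even. Atp5b, the catalytic beta subunit, had 13.27, 13.21, 13.09 and 13.18 on controls 1 to 4 and 13.09, 13.18, 13.22 and 13.35 on hydrogen water 1 to 4. The lowest and the highest array were both in the hydrogen water group, and the difference was 0.02 (95% interval −0.19 to 0.24). Atp5a1, the alpha subunit, had 12.59, 12.50, 11.88 and 12.39 on controls 1 to 4 and 12.47, 12.25, 12.57 and 12.61 on hydrogen water 1 to 4. Control 3 was the lowest, and the difference of 0.14 (95% interval −0.20 to 0.47) became −0.02 without it. The stalk subunits gamma, delta and epsilon (Atp5c1, Atp5d and Atp5e) differed by 0.06 (SE 0.15), 0.05 (SE 0.11) and −0.13 (SE 0.21).

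The clearest separation in complex V was in Atp5md, a small membrane subunit also known as DAPIT or Usmg5. It had log2 signals of 13.16, 13.20, 13.49 and 13.18 on controls 1 to 4 and 12.87, 13.15, 12.98 and 12.44 on hydrogen water 1 to 4. The groups did not overlap, but control 1 and hydrogen water 2 were almost level, and control 3 was the highest and hydrogen water 4 the lowest array. The difference was −0.40 (SE 0.15, limma adjusted p = 0.674). It was −0.26 without hydrogen water 4, −0.32 without control 3 and −0.18 without both. Subunit g (Atp5l), also in the membrane, had 10.13 on hydrogen water 4 against 11.12 to 11.57 on the others and differed by −0.31 (95% interval −0.83 to 0.22). On the higher side, Atp5g2 had the smallest unadjusted p. It is one of 3 genes that encode the same proton-carrying c subunit, and its signals were 11.28, 11.34, 11.04 and 11.59 on controls 1 to 4 and 11.60, 11.56, 11.48 and 11.61 on hydrogen water 1 to 4. Control 4 lay with the hydrogen water arrays and controls 1 to 3 lay below them. The difference was 0.25 (SE 0.12, limma adjusted p = 0.709), and 0.16 without control 3. The other c subunit genes, Atp5g1 and Atp5g3, differed by −0.02 (SE 0.10) and −0.04 (SE 0.14).

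**Figure D2:**
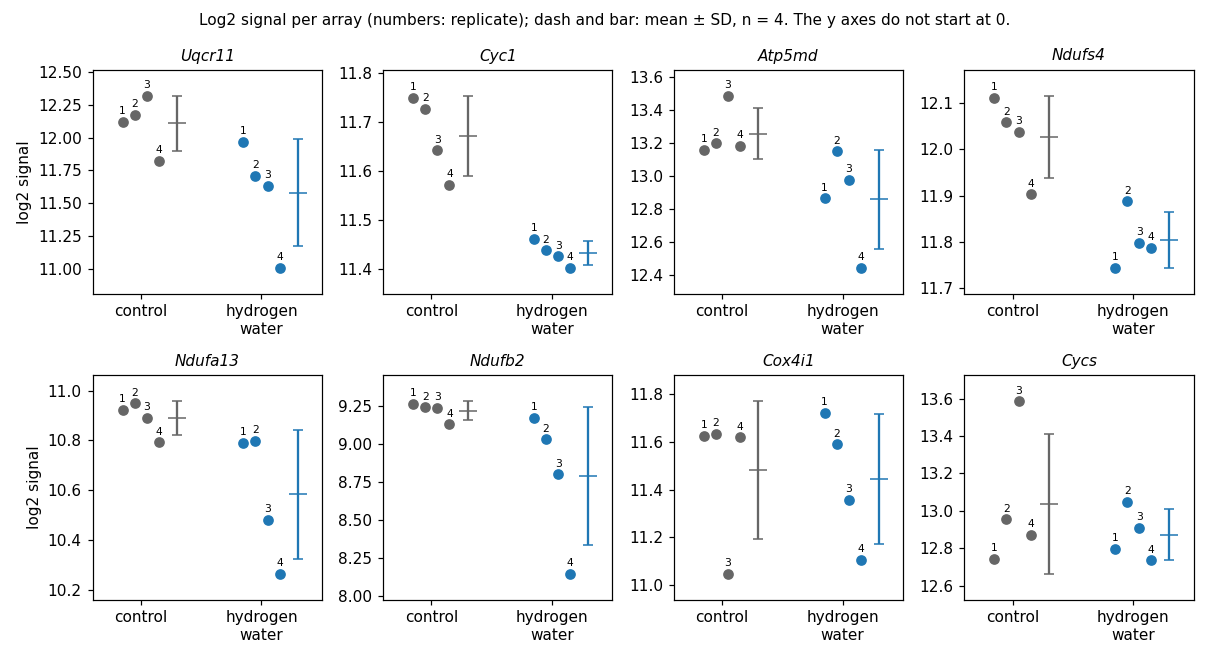
Log2 signal of 8 genes on each array (points, numbered by replicate; the dash and bar beside them are the mean and SD of 4 arrays; the axes do not start at 0). Cyc1, Atp5md and Ndufs4 separate the groups, hydrogen water 4 is the lowest array for Uqcr11, Ndufa13 and Ndufb2, and control 3 is far from the other controls in Cox4i1 and Cycs.

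The members shared a pattern across arrays. Of the 83 genes, 37 (44.6%) had their lowest value on hydrogen water 4, against 15.8% of all genes and 12.5% of the genes above the median signal. Control 3 held the lowest value of 26 members (31.3%), against 18.4% of all genes and 26.3% of those above the median signal, so that its share was close to that of bright genes. On hydrogen water 4, 15 of 83 members (18.1%) lay above their own 8-array mean, while 61.4% of genes above the median signal did. On control 3 it was 35 of 83, against 42.8%. Controls 1, 2 and 4 had 61, 64 and 54 members above their mean and hydrogen water 1, 2 and 3 had 61, 46 and 38. Hydrogen water 4 was thus low in these genes while bright genes in general were high on it.

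By complex, the median deviation on hydrogen water 4 was −0.30 for complex I, −0.17 for III, −0.22 for IV and −0.21 for V, but 0.02 for complex II. On control 3 it was −0.11 for complex I, −0.13 for II and V, −0.04 for IV and 0.05 for III. Control 3 was uneven within complexes. Ndufb6 stood at 11.27 there against 11.99 to 12.46 on the other arrays, whereas Ndufs7 stood at 13.07 against 12.34 to 12.50. The median SD of a member was 0.197 in controls and 0.0877 without control 3, and 0.172 with hydrogen water and 0.127 without hydrogen water 4. Over all genes it was 0.166 and 0.129, and 0.159 and 0.141. Which property of those livers or RNA samples moves with this was not tested.

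**Figure D3:**
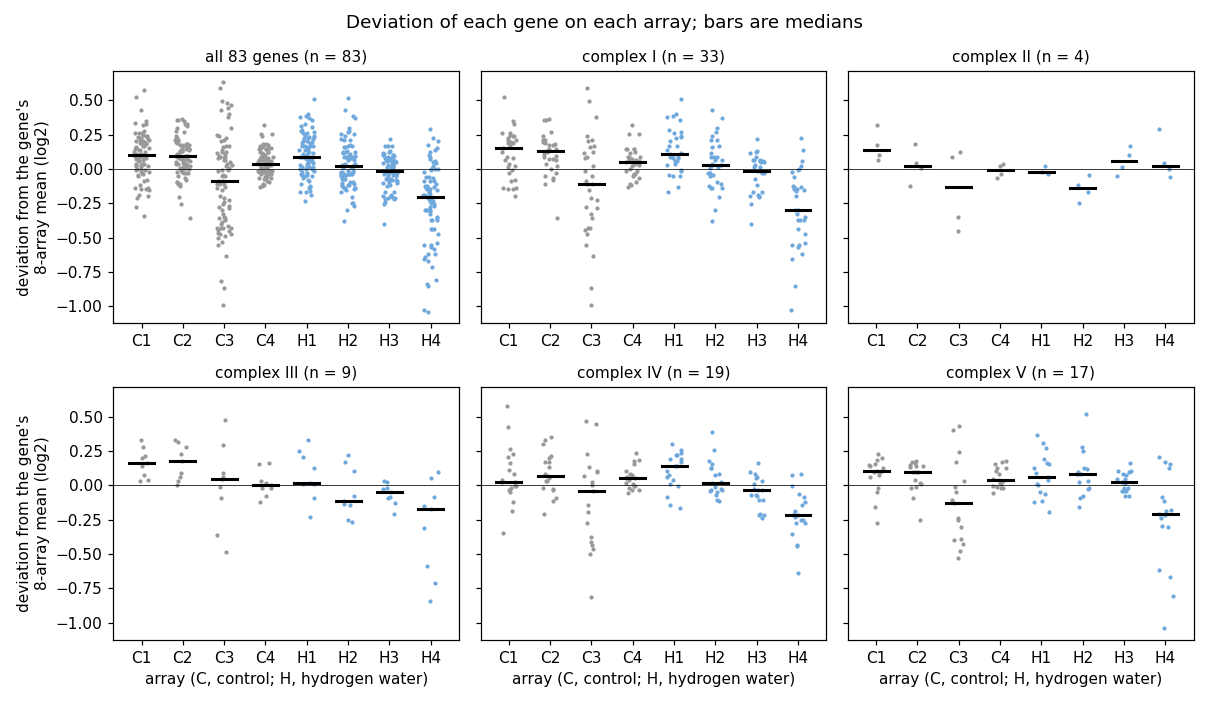
Deviation of each gene from its own mean over the 8 arrays (points) and the median of the group (bars), by array, for all 83 genes and for each complex. Hydrogen water 4 (H4) has the lowest medians in complexes I, III, IV and V, and the points of control 3 (C3) are spread widely on both sides of 0.

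Several members were read by more than 1 probe set, which gives a check within the array. Of the 83 genes, 17 had several probe sets, and in 2 of these (Atp5g1 and Atp5pb) the probe sets differed in direction. The 3 probe sets of Atp5md gave −0.40, −0.38 and −0.37, and groups that did not overlap in 1 of the 3. The 3 of Uqcrb gave −0.21, −0.22 and −0.23, and the 3 of Atp5g2 gave 0.25, 0.22 and 0.20. The 6 of Atp5l lay between −0.37 and −0.31. Several of these genes have processed pseudogenes in the mouse genome, and which copy each probe set was designed on is not given in the sources used here, so such probe sets may not be independent readings. The probe sets shared between Cox7c and Gm12338 differed by −0.04, −0.08 and −0.04, and those shared between Ndufb4 and Ndufb4b by −0.37 (SE 0.20) and −0.39 (SE 0.20).

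Because the members shared this pattern, their promoters were searched for motifs of factors known to act on respiratory chain genes. The 250 bases before the gene start were taken from RefSeq (GRCm38.p6), where 67 of the 83 members had a window. The NRF1 core CGCANGCG, on either strand, was found in 16 of 67 (23.9%), against 10.2% of all 15563 genes with a window and 15.1% of the 8035 above the median signal. A longer form, the core with G before it and C after it, was in 11 (16.4%, against 5.86% and 9.02%). The GABP motif CCGGAAGT was in 3 (4.48%, against 4.08% and 6.1%), a YY1 motif in 0 (against 0.392% and 0.672%) and the ERRalpha motif TNAAGGTCA in 1 (1.49%, against 0.925% and 0.685%). Members with the NRF1 core were lower with hydrogen water in 9 of 16 (median −0.06), and those without it in 33 of 51 (median −0.04). A match describes the letters and is not a binding site.

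Cyc1 had no window. The windows of 4 other members named above are printed 5′ to 3′ in the direction of transcription, with matches in capitals. All lie on the minus strand: Atp5md at chr19:47090648-47090897, Ndufs4 at chr13:114388095-114388344, Uqcr11 at chr10:80406822-80407071 and Cycs at chr6:50566570-50566819. They show 2 NRF1 cores in Atp5md, 1 in Cycs beginning 61 bases before the start, 1 GABP motif in Uqcr11 beginning 66 bases before the start, and 0 matches in Ndufs4.
Atp5md: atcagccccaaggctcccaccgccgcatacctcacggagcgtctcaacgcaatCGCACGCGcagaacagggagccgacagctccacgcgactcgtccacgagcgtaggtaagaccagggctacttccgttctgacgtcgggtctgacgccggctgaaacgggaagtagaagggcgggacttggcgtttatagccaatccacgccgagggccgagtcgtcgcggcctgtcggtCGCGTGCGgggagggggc
Cycs: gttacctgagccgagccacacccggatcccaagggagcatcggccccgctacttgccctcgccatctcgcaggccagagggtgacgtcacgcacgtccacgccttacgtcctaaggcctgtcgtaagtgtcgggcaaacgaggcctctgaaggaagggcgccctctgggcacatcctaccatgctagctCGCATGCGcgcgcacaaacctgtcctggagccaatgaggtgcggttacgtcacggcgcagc
Uqcr11: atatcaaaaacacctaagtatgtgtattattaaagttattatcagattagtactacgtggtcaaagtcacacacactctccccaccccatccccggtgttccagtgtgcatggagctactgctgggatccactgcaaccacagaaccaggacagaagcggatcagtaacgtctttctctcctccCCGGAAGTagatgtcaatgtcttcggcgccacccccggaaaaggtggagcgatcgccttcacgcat
Ndufs4: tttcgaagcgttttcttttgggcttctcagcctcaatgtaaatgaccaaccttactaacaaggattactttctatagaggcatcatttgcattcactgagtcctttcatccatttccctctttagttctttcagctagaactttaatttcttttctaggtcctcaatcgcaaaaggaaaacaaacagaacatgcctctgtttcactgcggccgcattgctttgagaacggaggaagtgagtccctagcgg

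Genes that act with the chain did not pass the test over all genes either, with 0 called in each of 11 lists. Subunits encoded by mitochondrial DNA were measured in 2 cases. COX2, a catalytic subunit of complex IV, differed by 0.0095 (95% interval −0.21 to 0.23) and ND3, of complex I, by 0.03 (95% interval −0.19 to 0.25), so that both were close to even. Assembly factors were lower in 8 of 13 for complex I, 4 of 4 for complex II, 4 of 6 for III, 5 of 16 for IV and 3 of 4 for V. Their median differences were −0.03, −0.30, −0.05, 0.05 and −0.16. Sdhaf2, which helps attach the flavin to Sdha, had 8.60, 8.62, 8.62 and 8.59 on controls 1 to 4 and 8.26, 8.43, 8.31 and 8.46 on hydrogen water 1 to 4. All 4 controls lay above all hydrogen water arrays, and the difference was −0.24 (SE 0.09, limma adjusted p = 0.683). Sdhaf3 differed by −0.60 (SE 0.29), with 9.64 on control 3 against 8.46 to 8.54 on the other controls, by −0.32 without that array and by −0.15 without it and hydrogen water 4.

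Uqcc2, an assembly factor for complex III that is needed to make cytochrome b, had 10.09, 9.99, 10.37 and 10.09 on controls 1 to 4 and 9.82, 10.03, 9.28 and 8.77 on hydrogen water 1 to 4. Hydrogen water 3 and 4 were low, and hydrogen water 2 lay within the controls. The difference was −0.66 (SE 0.23, limma adjusted p = 0.651), −0.42 without hydrogen water 4, and −0.34 without that array and control 3. Atpaf1, a chaperone for the ATP synthase head, differed by −0.32 (SE 0.12) and Tmem242, an assembly factor of the synthase, by −0.25 (SE 0.22). Among the others, Ndufaf4 and Ndufaf5 (complex I assembly) differed by 0.29 (SE 0.11) and −0.26 (SE 0.16), Uqcc3 by −0.11 (SE 0.13), and Cox10 and Coa3 (complex IV assembly) by 0.24 (SE 0.11) and −0.25 (SE 0.13). Limma adjusted p for these 7 genes lay between 0.674 and 0.905. Tmem242 ranged from −0.49 without control 3 to −0.13 without control 2, and Ndufaf5 was −0.14 without control 1.

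Coenzyme Q synthesis genes were lower in 7 of 12 (median −0.03), with Coq8a, a kinase-like protein, at −0.33 (SE 0.12) and the methyltransferase Coq5 at 0.25 (SE 0.13), which was 0.07 without control 3 and hydrogen water 4. Other donors to coenzyme Q were lower in 4 of 7 (median −0.000135), with the glycerol phosphate dehydrogenase Gpd2 at −0.22 (SE 0.15) and the sulphide oxidase Sqor at −0.21 (SE 0.13). Gpd2 was −0.08 without hydrogen water 2, and Sqor −0.13 without control 1. Enzymes of the tricarboxylic acid cycle, which feed NADH and succinate to the chain, were higher in 8 of 13 (median 0.04). Fumarase (Fh1) differed by 0.26 (SE 0.10) and Idh3a, a subunit of isocitrate dehydrogenase, by 0.31 (SE 0.13), or 0.20 without control 3 and hydrogen water 4. Genes of mitochondrial DNA transcription and replication were higher in 7 of 11 (median 0.03), with the helicase Twnk at 0.26 (SE 0.13) and the polymerase subunit Polg2 at 0.25 (SE 0.22). Without control 3, Twnk was 0.14 and Polg2 0.04, and without both arrays Twnk was 0.10 and Polg2 −0.0067. Regulators of the chain were higher in 6 of 8 (median 0.12), with the PGC-1-related coactivator Pprc1 at 0.27 (SE 0.11) and the GABP subunit Gabpa at 0.17 (SE 0.10). On hydrogen water 4 the mean deviation of the regulators was 0.23 and that of the cycle enzymes 0.20, beside the −0.29 of complex I.

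**Figure D4:**
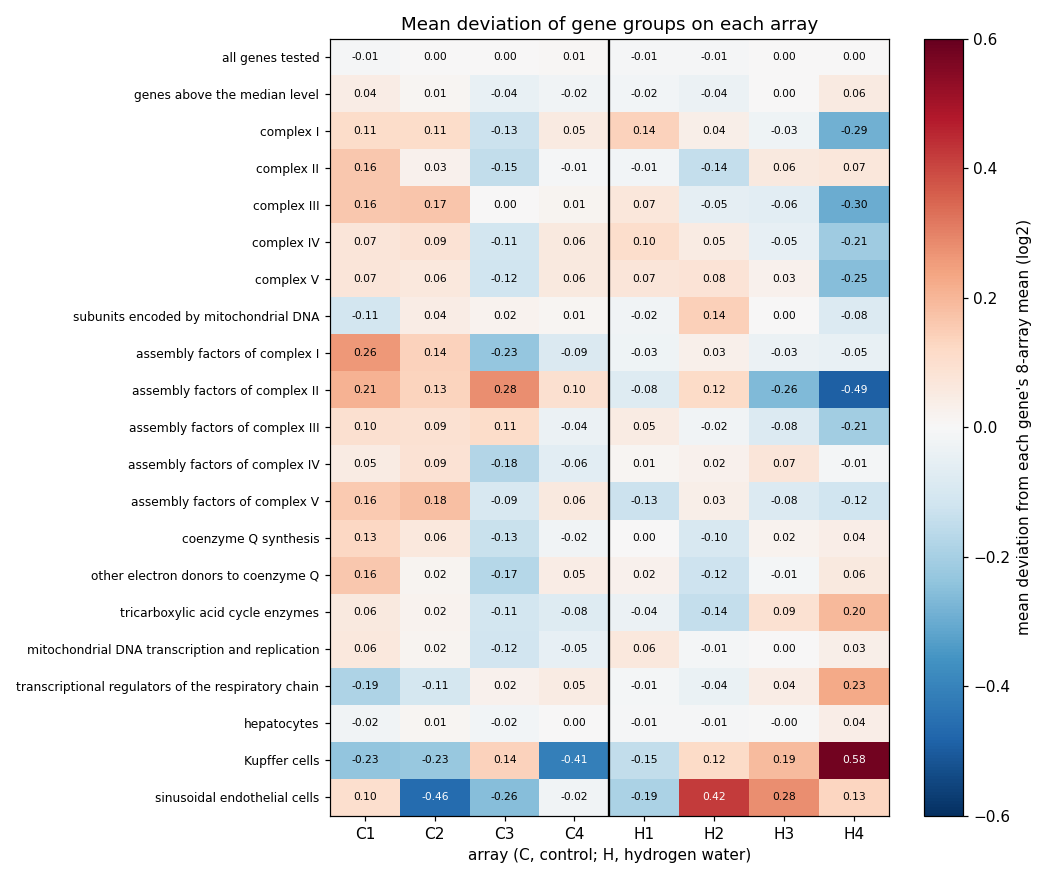
Mean deviation of gene groups from each gene's 8-array mean, by array (colour and printed value, log2 scale; C, control; H, hydrogen water). On hydrogen water 4, complexes I, III, IV and V have negative means (−0.29, −0.30, −0.21 and −0.25) while the Kupffer cell markers have a mean of 0.58.

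Markers of other liver cells also moved with the arrays. Kupffer cell markers, of the resident macrophages, were higher with hydrogen water in 12 of 12, with 4 of 12 at an unadjusted p under 0.05 and 8 of 12 above the median signal. Their per-array mean signal was 6.29 to 6.84 in controls and 6.56 to 7.29 with hydrogen water, and they were highest on hydrogen water 4, where the members were lowest. Sinusoidal endothelial markers were higher in 10 of 10 (3 of 10 at an unadjusted p under 0.05), with means of 7.65 to 8.21 and 7.92 to 8.52. Of all 19938 genes, 9715 were higher, and 3.6% were higher with an unadjusted limma p under 0.05. After adjustment, 0 of the Kupffer cell and endothelial markers passed. Hepatocyte markers were higher in 4 of 9, with a mean deviation of 0.04 on hydrogen water 4. The median differences of 8 further marker lists, for stellate, bile duct, blood, immune, acinar and fat cells, lay between −0.15 and 0.04. In whole liver, fewer cells of a type and less RNA per cell cannot be told apart, and the part of these markers in the members' values was not tested.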

How the data were processed

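RNA from 8 liver samples of fasted mice was extracted with QIAGEN RNeasy Mini and prepared with the Ambion WT Expression Kit with a biotin label, per the labels' protocols. The authors deposited 1 table of log2 signals, and the submitters' processing notes name Affymetrix Expression Console. Not given in the sources used here are its version, background correction, normalization, summary method and genome build. The log2 scale was read from the values.

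Of 35556 probe sets, 21789 named 1 gene, 1621 several and 12146 none here, by the platform annotation. All 19938 genes entered 1 fit of 2 groups (R 4.3.3, limma 3.58.1: lmFit, then eBayes; no covariate, no filter, two-sided) and p-values were adjusted over all of them by Benjamini-Hochberg at 0.05. The fit had 6 residual and 5.88 prior degrees of freedom. Updating symbols through Entrez identifiers changed 0 of them.

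The members and the gene lists were chosen with earlier results of these data known. Genes named were members whose groups did not overlap, each complex's higher and lower member of smallest unadjusted p, core catalytic members, 5 tissue isoforms and at most 2 genes per pathway list (47 genes in all). Ndufb2, Ndufb6, Ndufb8, Ndufs7, Ndufa1, Ndufa4, Atp5l and other members outside that rule were named after their values were seen. COX2 and ND3 were matched to the list by an alias table made after the list was written.

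Alternatives were other choices of probe set, a filter on dim genes, probe sets with several symbols, updated symbols, median centring, quantile normalization, a robust trended prior, array weights, a replicate block, a permutation test and each array left out. Leaving out control 3 and hydrogen water 4 together was chosen after seeing the data. No pseudocount was needed. Promoter windows came from RefSeq and the first listed start of each gene was used. The fit was tested on simulated data before use. Python 3.11.15 and matplotlib 3.10.9 made the plots.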

Additional observations from a re-analysis of the deposited data

Results flagged for a closer look

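In 4 of 62 groups of 4 values examined (named members and medians of the complexes), 1 array lay far from the other 3, with a gap above the 95% critical value of Dixon's ratio. All 4 concerned control 3, and chance gives about 1 such group in 20. Cox4i1 stood at 11.05 there, against 11.62 to 11.63 on the other controls. Cox5b stood at 11.35 against 11.69 to 11.76, and Ndufv1 at 11.32 against 11.59 to 11.63. Atp5md went the other way, at 13.49 against 13.16 to 13.20. What moves with control 3 in these genes was not tested.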

How the results depend on the processing

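No member passed the adjusted threshold under any alternative, and none of the 47 named genes did. The number of genes past it in the whole table was 0 to 1 with 1 array left out (1 without control 2 and 1 without control 3) and 3 without both control 3 and hydrogen water 4. The 6 lower members at an unadjusted p under 0.05 became 10 probe sets with every probe set on its own (where 77 of 109 were lower), 3 under quantile normalization (and 1 higher), 10 with array weights, 3 by the permutation test, 1 without both arrays (and 1 higher), and 2 to 8 (0 to 2 higher) with 1 array left out. They were 2 without control 1, control 2 or hydrogen water 4 and 3 without hydrogen water 3. The share of all genes at that p was not counted under the alternatives. Whether these counts lie above or near the background is therefore not known. Members whose groups did not overlap on the lower side, 3 of them, became 1 under quantile normalization, 6 without both arrays and 3 to 9 with 1 left out, where 0 to 2 did so on the higher side. These non-overlap counts were not taken over all genes under the alternatives, so no background stands beside them. With fewer arrays, groups also come apart more readily by the design alone. The rise with arrays left out is therefore not read as a result about the members. What else moves these counts was not tested. With the replicate number as a block (replicate block) there were 6 lower members, 4 of them shared with the fit without it. The numbers share no stated origin, and same-numbered arrays correlated at −0.06, 0.06, −0.03 and −0.16 in their deviations, so they were not taken as pairs.

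The medians of the complexes moved by less than the spread between arrays under every alternative, but crossed 0 with 1 array left out in complexes I (−0.13 to 0.01), II (−0.06 to 0.04, with 0.02 under quantile normalization and −0.10 without both arrays) and V (−0.09 to 0.04). They stayed below 0 in complex III (−0.21 to −0.08) and IV (−0.11 to −0.0030). Of 47 named genes, 32 kept their direction throughout. With 1 array left out, differences ranged over −0.097 to 0.0081 for Ndufv1, −0.015 to 0.18 for Sdha, −0.092 to 0.024 for Uqcrc1, −0.13 to 0.14 for Uqcrh, −0.26 to 0.016 for Cycs, −0.18 to 0.076 for Cox4i1, −0.27 to 0.024 for Cox5a, −0.064 to 0.078 for Cox4i2, −0.12 to 0.0063 for Cox6a2, −0.15 to 0.11 for Cox8b, −0.017 to 0.22 for Atp5a1, −0.025 to 0.063 for Atp5b, −0.037 to 0.055 for COX2 and −0.024 to 0.070 for ND3. The direction also turned with array weights for Atp5b (−0.0068), Cox4i2 (0.034), Cox6a2 (0.025), Cox8b (0.029) and Uqcrh (−0.072), with quantile normalization for Ndufv1 (0.021), with median centring for COX2 (−0.00045) and with the mean of its probe sets for ND3 (−0.048). Without control 3 and hydrogen water 4 it turned for Atp5a1 (−0.063), Atp5b (−0.058), Cox4i2 (0.069), Cox6a2 (0.0035), Cox8b (0.14), Cycs (0.062), Polg2 (−0.0067), Sdha (−0.097) and Uqcrh (−0.018). Testing every probe set alone gave no single value per gene. The number of arrays limits the precision.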
